A study of Homo sapiens with 12 samples.

Results

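MHC class I molecules and the machinery that loads them with peptide were followed through 9 genes of the count table, out of 58735 rows. The genes were taken by symbol: the heavy chains HLA-B, HLA-C, HLA-E and HLA-F, their shared light chain B2M, the peptide transporter subunits TAP1 and TAP2, the loading chaperone TAPBP (tapasin) and the activator NLRC5. All 9 passed the filter on low counts, which left 17829 genes to test. The libraries came from A549, an established and normally adherent line of human lung adenocarcinoma. Control A549 and A549 made to express GFI1, a zinc-finger repressor of blood cell development, were each collected attached or floating, the latter after 48 hours of forced suspension, with 3 libraries in each of the 4 groups. The human GFI1 cDNA was delivered by a lentivirus with a PGK promoter and a GFP marker, and GFP-positive cells were sorted for RNA-Seq. The methods mention A549 with an empty vector for the animal experiments, but do not say which vector the controls of the RNA-Seq held. Effects of GFI1 and of transduction therefore cannot be told apart. All libraries come from 1 cell line, and nothing in the labels says that replicates were separate cultures. The p-values therefore measure the spread between these libraries, which may be technical.

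In every nucleated cell, peptides cut by the proteasome are carried into the endoplasmic reticulum by the TAP1-TAP2 transporter. There TAPBP bridges the transporter to heavy chains bound to B2M, and loaded complexes travel to the surface, where HLA-B and HLA-C are read by CD8 T cells and natural killer cells. HLA-E mainly presents peptides from the leader sequences of other class I chains to NKG2A and related receptors, and HLA-F is a little-studied chain that also meets natural killer receptors. NLRC5 is a class I transactivator that has no DNA-binding domain and works through the RFX, CREB/ATF1 and NFY factors on class I promoters, whereas interferons act on the same genes through STAT and IRF factors. Low class I expression is a common state of tumor cells that limits their recognition by T cells.

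The promoters of 5 members are shown because their genes differ widely in the size of the change described next, and because the factors just named bind at such places. Each line gives the 250 bases before the RefSeq start of the gene (GRCh38.p14), read on the gene's strand from 5′ to 3′. Capitals mark matches, on either strand, to the core of the interferon-stimulated response element (ISRE, GAAA and a second GAAA after any 2 bases), to CCAAT (the NFY box), to TGACG (the core bound by CREB/ATF factors) and to a kappaB site (GGG and TTCCC with any 2 bases between).
HLA-B: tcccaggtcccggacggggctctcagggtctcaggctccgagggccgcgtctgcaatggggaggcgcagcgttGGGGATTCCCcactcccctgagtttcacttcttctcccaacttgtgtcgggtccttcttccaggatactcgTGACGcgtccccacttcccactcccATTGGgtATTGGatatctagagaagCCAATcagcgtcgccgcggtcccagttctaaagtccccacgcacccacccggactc
HLA-C: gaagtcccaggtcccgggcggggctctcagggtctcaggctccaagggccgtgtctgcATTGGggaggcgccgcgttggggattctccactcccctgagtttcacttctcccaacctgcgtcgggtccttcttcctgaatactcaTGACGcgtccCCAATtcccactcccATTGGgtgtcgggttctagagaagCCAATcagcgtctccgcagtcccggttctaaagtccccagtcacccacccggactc
B2M: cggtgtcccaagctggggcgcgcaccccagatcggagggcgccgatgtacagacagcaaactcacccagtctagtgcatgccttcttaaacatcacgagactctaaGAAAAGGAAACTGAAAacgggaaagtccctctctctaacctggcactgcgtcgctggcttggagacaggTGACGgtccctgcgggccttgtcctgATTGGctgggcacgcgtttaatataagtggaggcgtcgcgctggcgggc
TAP1: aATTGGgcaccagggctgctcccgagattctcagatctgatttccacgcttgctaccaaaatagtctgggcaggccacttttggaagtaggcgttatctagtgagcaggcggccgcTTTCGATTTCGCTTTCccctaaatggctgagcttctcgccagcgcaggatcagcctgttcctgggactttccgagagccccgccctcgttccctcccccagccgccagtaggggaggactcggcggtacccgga
TAPBP: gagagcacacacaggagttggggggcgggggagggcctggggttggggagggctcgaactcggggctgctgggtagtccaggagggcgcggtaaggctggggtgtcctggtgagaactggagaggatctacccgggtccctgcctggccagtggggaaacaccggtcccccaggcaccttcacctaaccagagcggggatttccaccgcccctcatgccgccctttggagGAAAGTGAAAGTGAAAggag
The windows are chr6:31357180-31357429 (HLA-B, minus strand), chr6:31272093-31272342 (HLA-C, minus strand), chr15:44711267-44711516 (B2M, plus strand), chr6:32853705-32853954 (TAP1, minus strand) and chr6:33314079-33314328 (TAPBP, minus strand). Each of the 5 overlaps the span that the count table gives for its gene, so the RefSeq starts are not the outermost ones of the annotation used for counting.

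RefSeq promoters were found for 7 of the 9 members, with 8 windows in all because TAP1 has 2 starts, and no window was matched for HLA-E or NLRC5. The ISRE letters occurred in 5 of the 8 windows (HLA-F, TAP2, TAP1, TAPBP and B2M), against 3.02% of 35116 promoter windows of the same length. In TAP1, TAPBP and B2M, pairs of matches overlapped each other by 4 bases. The CCAAT letters occurred in 5 of the 8 windows (32% of all windows) and TGACG in 4 (21.2%). Only HLA-B among the 8 windows held the kappaB letters, at positions -177 to -168 from the start (1.97% of all windows), and no member window held AATCANNGC, the letters used for a GFI1 site (3.16%). Global alignment gave 89% identical columns between the HLA-B and HLA-C windows. HLA-F matched HLA-B in 79.8% of columns, whereas B2M matched HLA-B in 47.3%. A match describes letters in the reference and is no proof of a site. Only the exact letters given were searched. A missing match, as for the ISRE in HLA-B and HLA-C or kappaB outside HLA-B, does not show that a site is absent.

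Total counts ran from 17014188 to 20748677 per library. The 9 members took 0.0614% to 0.0643% of the counts of attached control libraries and 0.164% to 0.170% of attached GFI1 libraries. The labels held for GFI1 itself, with 4 to 12 counts in each control library and 5154 to 12796 in each GFI1 library. Its level was not equal in the 2 cultures, at 290.1 ± 4.4 CPM in attached and 560.1 ± 138.3 CPM (SD, n = 3, from 430.2 to 705.5) in floating GFI1 cells. Values below are CPM, read counts relative to library size after TMM, a trimmed-mean normalization between libraries. Each p is from the quasi-likelihood model of edgeR, adjusted by Benjamini-Hochberg over all 17829 genes. Other properties of the cells moved with GFI1. The summed level of 5 epithelial markers (EPCAM, CDH1, KRT8, KRT18, KRT19) was 5300 to 8820 CPM in control and 1890 to 2560 CPM in GFI1 libraries, with 4 of the 5 lower in both states. The 5 leukocyte markers summed to 5.27 to 14.7 CPM in control and 4.73 to 7.5 CPM in GFI1 libraries. CD14 made up most of this sum, at 73 to 229 counts per library, and PTPRC (CD45) had at most 1 count. Both of the 2 tested leukocyte genes were lower with GFI1 in floating cells (log2 -0.826 and -1.58), and 0 were called in attached cells. The 3 endothelial markers summed to 0.109 to 0.602 CPM in control and 3.55 to 5.52 CPM in GFI1 libraries, and the 3 fibroblast markers to 8.50 to 14.1 and 5.41 to 9.24 CPM. The fibroblast sum hides opposite changes. Of its 2 tested genes, 1 was higher with GFI1 (log2 3.99 attached, 3.42 floating) and 1 lower (-1.03 and -1.41). The part of these shifts in the class I results was not tested, and in bulk RNA more cells with a transcript and more transcript per cell cannot be told apart.

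All 9 class I genes were higher in GFI1-expressing cells, in attached and in floating culture. In attached cells 9 of 9 passed the test as higher, against 29.5% of all genes tested, and 7 were at least 2-fold higher, against 9.70%. In floating cells again 9 of 9 were higher (29.3% of all genes) and 6 at least 2-fold (8.44%). Scaling by library size alone left all 9 called in each state and changed the split of all genes called from 5258 higher and 5844 lower to 7001 and 4375 in attached cells, and from 5223 and 5547 to 6840 and 4308 in floating cells. The median log2 fold change over the members was 1.65 attached and 1.74 floating, beside -0.01 and 0.01 over all genes. In both states the 3 GFI1 values of every member lay above the 3 control values, which held for 32.2% and 31.7% of all genes.

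NLRC5, the activator, was itself among the genes that rose. Its attached control libraries gave 11.9, 14.3 and 13.3 CPM and its attached GFI1 libraries 58.2, 58.2 and 60.3 CPM. Floating control libraries gave 15.7, 14.7 and 14.3 CPM, and floating GFI1 libraries 59.6, 54.0 and 59.9 CPM. The 6 GFI1 values were thus close together whatever the culture, and far above the 6 controls. The log2 fold change was 2.16 ± 0.07 (SE, n = 3 against 3) attached, or 4.46-fold with an adjusted p of 3.21e-19 by edgeR. In floating cells it was 1.96 ± 0.07, or 3.89-fold (edgeR adjusted p of 1.99e-18).

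HLA-B had the largest change of the members. It was scarcely expressed in attached control cells, at 4.17, 3.69 and 4.48 CPM (68 to 78 counts), and reached 66.8, 60.4 and 66.1 CPM with GFI1. Floating control libraries gave 10.85, 8.37 and 8.16 CPM, and floating GFI1 libraries 75.6, 80.9 and 80.1 CPM. The 4 groups did not overlap. GFI1 cells had 15.7-fold more HLA-B than controls when attached (log2 3.97 ± 0.09, edgeR adjusted p of 4.89e-22) and 8.64-fold more when floating (3.11 ± 0.08, 3.49e-21). In the deposited annotation the HLA-B span runs over 2640 bases of HLA-C on the same strand, and near-identical stretches of HLA genes can share reads. Of all stretches of 100 bases of the reference HLA-B transcript, 0 of 1437 occurred exactly in a transcript of another gene, and of those of 50 bases 2.56% did. The alleles of A549 were not compared.

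HLA-C, the other classical chain among the members, started higher and rose less. Its attached control libraries gave 55.2, 37.9 and 40.9 CPM, the first standing apart from the others, and the attached GFI1 libraries 206, 204.6 and 186.6 CPM. Floating control libraries gave 61.1, 61.2 and 58.75 CPM, and floating GFI1 libraries 234.4, 240.1 and 271.3 CPM. GFI1 libraries were well above all controls, including the high one. The change was 4.47-fold attached (log2 2.16 ± 0.08, edgeR adjusted p of 2.17e-17) and 4.12-fold floating (2.04 ± 0.08, 3.59e-17). Of the 100-base stretches of HLA-C, 0.277% were shared with another gene, and of those of 50 bases 6.76%. The 2640 bases of HLA-C under the HLA-B span may also have affected which reads were counted for HLA-C, and this was not tested.

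HLA-F had the lowest level of the 4 heavy chains. It had 20 to 30 counts in each control library and 156 to 220 in each GFI1 library. Its mean rose from 1.26 ± 0.15 to 8.52 ± 0.25 CPM (SD, n = 3) in attached cells, 6.75-fold (log2 2.75 ± 0.16 SE, edgeR adjusted p of 7.97e-14). The floating change was 6.08-fold (2.60 ± 0.15, 6.03e-14). HLA-F-AS1, which overlaps HLA-F on the opposite strand, held 8 to 70 counts, and since the strand setting of the counting is not given in the sources used here, reads of the pair may not be told apart.

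HLA-E moved little. Attached control libraries gave 88.2, 94.4 and 92.6 CPM and attached GFI1 libraries 110, 111.4 and 108 CPM. Floating control libraries gave 134.3, 130.3 and 123.9 CPM, and floating GFI1 libraries 141.5, 153.1 and 144.6 CPM. The values did not overlap, yet the GFI1 change was only 1.20-fold attached (log2 0.26 ± 0.05, edgeR adjusted p of 2.55e-05) and 1.13-fold floating (0.18 ± 0.04, 0.00124). Among all tested genes these changes stood at percentiles 67.0 and 62.2, whereas HLA-B stood at 99.3 and 99.1.

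B2M, the light chain that every class I complex needs, was the most abundant member. Attached control libraries gave 352.7, 354.5 and 329.8 CPM and attached GFI1 libraries 767.2, 774.1 and 745.6 CPM. Floating control libraries gave 453, 461.7 and 458.8 CPM, and floating GFI1 libraries 873.9, 831.2 and 913.8 CPM. The 4 groups were separate. GFI1 cells had 2.21-fold more when attached (log2 1.14 ± 0.04, edgeR adjusted p of 1.42e-17) and 1.91-fold more when floating (0.93 ± 0.04, 8.42e-16).

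**Figure D1:**
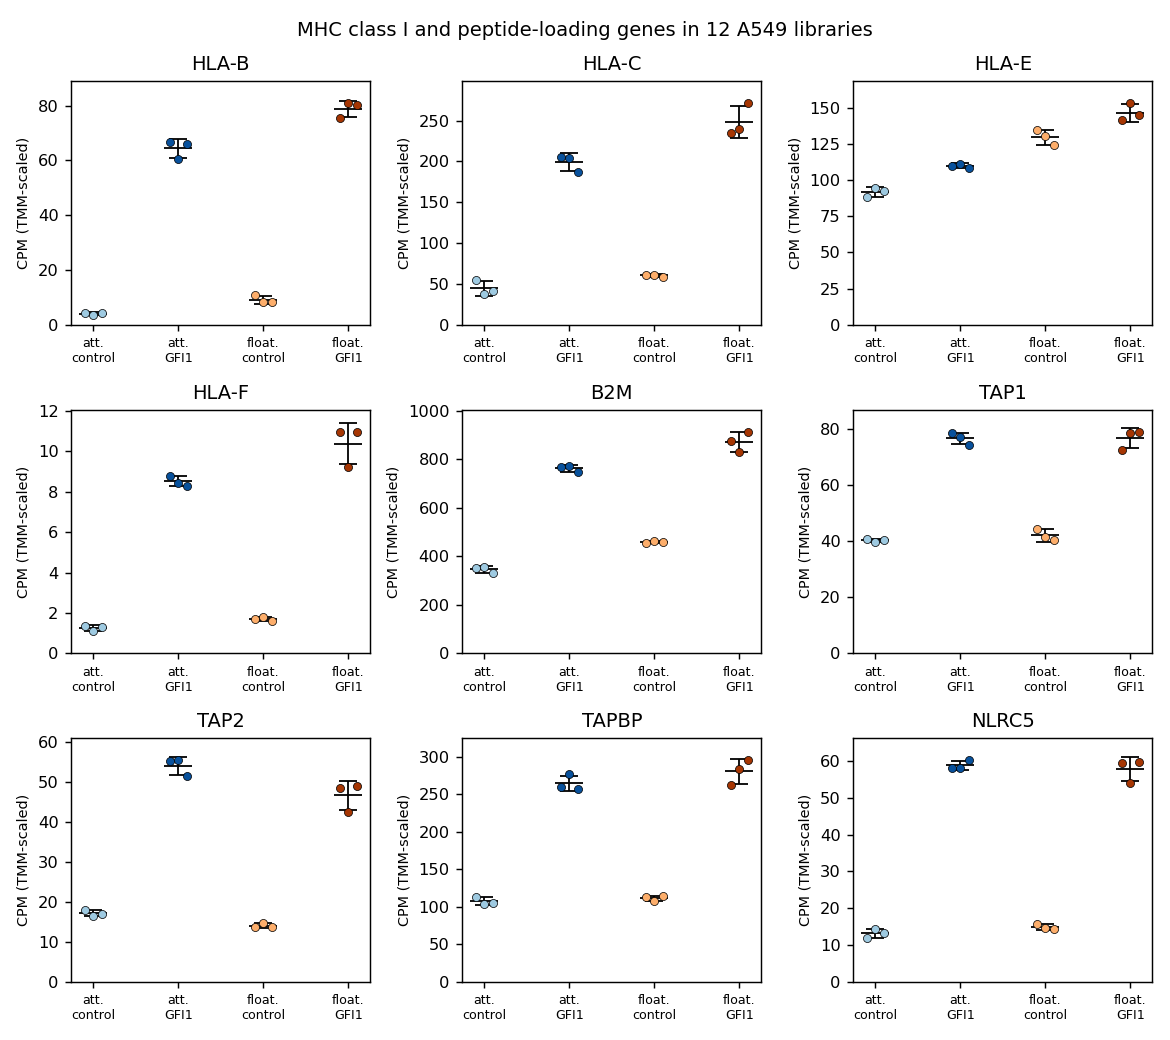
CPM (linear axes from 0, scaled separately for each gene) of the 9 members in the 12 libraries, with 1 point per library and the group mean and SD as bars, for attached (att.) and floating (float.) cells. In every panel the GFI1 points lie above the control points of the same culture, by 1.13-fold for HLA-E in floating cells and by 15.7-fold for HLA-B in attached cells.

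Levels of different genes can be compared only per length, so CPM values were divided by the gene length that the table gives (RPKM). On this scale HLA-E was the leading heavy chain of attached control cells, at 30.9 ± 1.1 RPKM (SD, n = 3), ahead of HLA-C at 17.8 ± 3.7, HLA-B at 1.35 ± 0.13 and HLA-F at 0.290 ± 0.035. In attached GFI1 cells HLA-C led at 79.4 ± 4.3 RPKM, with HLA-E at 36.9 ± 0.6, HLA-B at 21.1 ± 1.2 and HLA-F at 1.96 ± 0.06. In both states, then, HLA-E lay above HLA-C in all control libraries and below it in all GFI1 libraries. Floating controls had 43.5 ± 1.8 RPKM of HLA-E and 24.1 ± 0.6 of HLA-C, and floating GFI1 cells 49.2 ± 2.0 and 99.2 ± 7.9. B2M stood above each heavy chain in every group, from 56.9 ± 2.3 RPKM in attached control to 143.6 ± 6.8 in floating GFI1 cells. These levels depend on the annotated lengths, which hold the exons of all isoforms of a gene. Those of HLA-B and HLA-C may also depend on how reads in the overlap of their spans were counted.

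**Figure D2:**
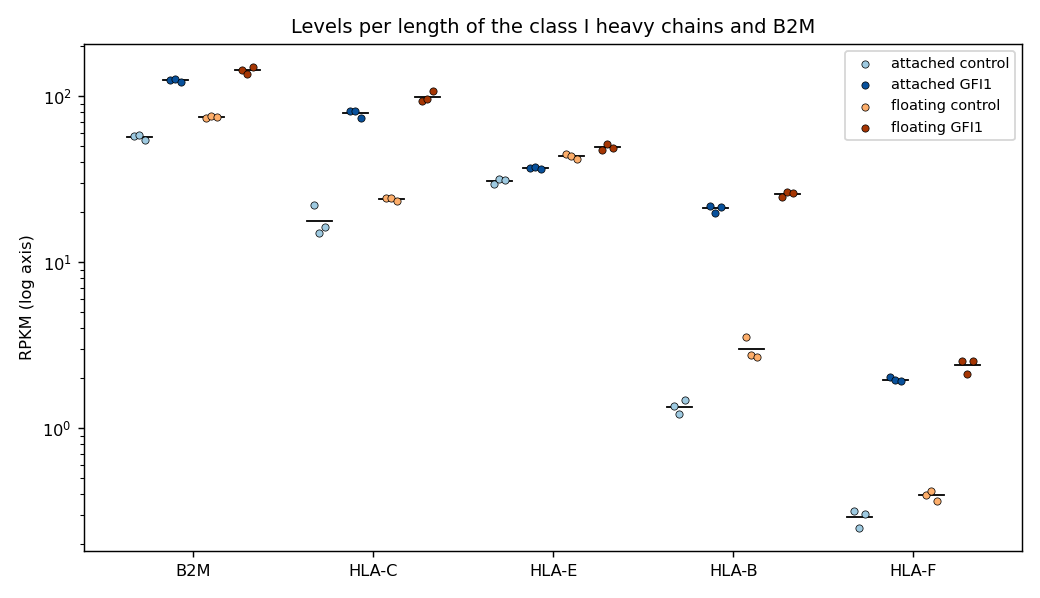
RPKM on a log axis for B2M and the 4 heavy chains, with 1 point per library and a line at each group mean of 3 libraries. HLA-E leads the heavy chains in control cells (30.9 RPKM attached) and HLA-C in GFI1 cells (79.4 RPKM attached), while HLA-B moves from 1.35 to 21.1 RPKM in attached cells.

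The transporter subunits rose with the chains they serve. TAP1 values were 39.75 to 40.85 CPM in attached control, 74.25 to 78.4 in attached GFI1, 40.2 to 44.3 in floating control and 72.4 to 78.9 in floating GFI1 libraries. Both cultures thus gave nearly the same TAP1 level at a given genotype. TAP1 was 1.90-fold higher with GFI1 in attached cells (log2 0.93 ± 0.05, edgeR adjusted p of 3.7e-14) and 1.83-fold higher in floating cells (0.87 ± 0.05, 1.41e-13). TAP1 lies wholly within the annotated span of PSMB9, an immunoproteasome gene on the opposite strand that held 73 to 914 counts per library, against 686 to 1666 for TAP1.

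TAP2 rose more than TAP1. Attached control libraries gave 18.0, 16.6 and 17.0 CPM and attached GFI1 libraries 55.3, 55.5 and 51.5 CPM. Floating control libraries gave 13.7, 14.8 and 13.6 CPM, and floating GFI1 libraries 48.5, 42.6 and 48.9 CPM. Within each genotype all floating values lay below the attached ones, which held for no other member. The GFI1 change was 3.14-fold attached (log2 1.65 ± 0.07, edgeR adjusted p of 6.6e-17) and 3.33-fold floating (1.74 ± 0.07, 6.63e-17). Per length, TAP1 exceeded TAP2 in attached control cells at 8.38 ± 0.12 against 2.69 ± 0.12 RPKM, and in attached GFI1 cells at 15.9 ± 0.4 against 8.46 ± 0.36. The whole of TAP2 lies within a readthrough gene on the same strand (AL669918.1, at most 1 count per library), and 34.7% of the 100-base stretches of its reference transcript occur in another gene, so part of its reads may have been left out of the count.

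TAPBP, the chaperone that holds empty chains at the transporter, had 103.1 to 113 CPM in attached control, 257.4 to 276.2 in attached GFI1, 107.3 to 113.8 in floating control and 261.9 to 295.2 in floating GFI1 libraries. The control ranges of the 2 cultures overlapped, as did the GFI1 ranges. Its GFI1 change was 2.47-fold attached (log2 1.31 ± 0.05, edgeR adjusted p of 1.4e-17) and 2.52-fold floating (1.33 ± 0.05, 8.66e-18).

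Suspension alone changed fewer members, and all but HLA-E by less than GFI1 did. In control cells 4 of 9 were higher (19.6% of all genes) and 1 lower (20.5%), and in GFI1 cells likewise 4 were higher (15.0%) and 1 lower (16.3%). The genes were the same in both, with HLA-B, HLA-C, HLA-E and B2M higher and TAP2 lower in floating cells. The median over the members was 0.41 on the log2 scale in control and 0.20 in GFI1 cells, beside 0.01 and 0.00 over all genes. A single call, HLA-B in control cells, was at least 2-fold (3.70% of all genes were at least 2-fold higher there, and 1.98% in GFI1 cells).

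In control cells HLA-B was 2.22-fold higher in suspension (log2 1.15 ± 0.12 SE, edgeR adjusted p of 3.84e-08), HLA-E 1.41-fold (0.50 ± 0.05, 2.62e-09), HLA-C 1.36-fold (0.44 ± 0.09, 3e-04) and B2M 1.32-fold (0.41 ± 0.04, 3.47e-08). TAP2 fell by 0.29 ± 0.08 (0.00466). HLA-F, at 0.44 ± 0.21, did not pass (0.124), although its 3 floating values, 1.59 to 1.81 CPM, lay above its attached ones, 1.09 to 1.37 CPM. TAP1 (0.06 ± 0.06, 0.429), TAPBP (0.06 ± 0.05, 0.426) and NLRC5 (0.17 ± 0.08, 0.0998) did not pass. For NLRC5 the 95% interval of the change ran from 0.00 to 0.34, and without attached control replicate 2 it was called at 0.24 (adjusted p of 0.045).

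In GFI1 cells the suspension changes were 0.42 ± 0.04 for HLA-E (1.33-fold, edgeR adjusted p of 6.38e-08), 0.32 ± 0.07 for HLA-C (1.25-fold, 0.0015), 0.29 ± 0.06 for HLA-B (1.22-fold, 0.000522) and 0.20 ± 0.04 for B2M (1.15-fold, 0.000837). The HLA-C call was lost under DESeq2 (adjusted p of 0.0913) and under robust empirical Bayes moderation in edgeR (0.0575). TAP2 fell by 0.21 ± 0.06 (0.00811). HLA-F had 0.29 ± 0.11 (0.0565) and was called at 0.30 with upper quartile scaling (0.0441), at 0.29 with a filter of 10 counts in every library (0.0458) and at 0.35 without floating GFI1 replicate 2 (0.0379). TAP1 (0.00 ± 0.05, 0.989), TAPBP (0.08 ± 0.05, 0.195) and NLRC5 (-0.03 ± 0.06, 0.78) did not pass, with 95% intervals from -0.10 to 0.10, -0.01 to 0.18 and -0.14 to 0.09.

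**Figure D3:**
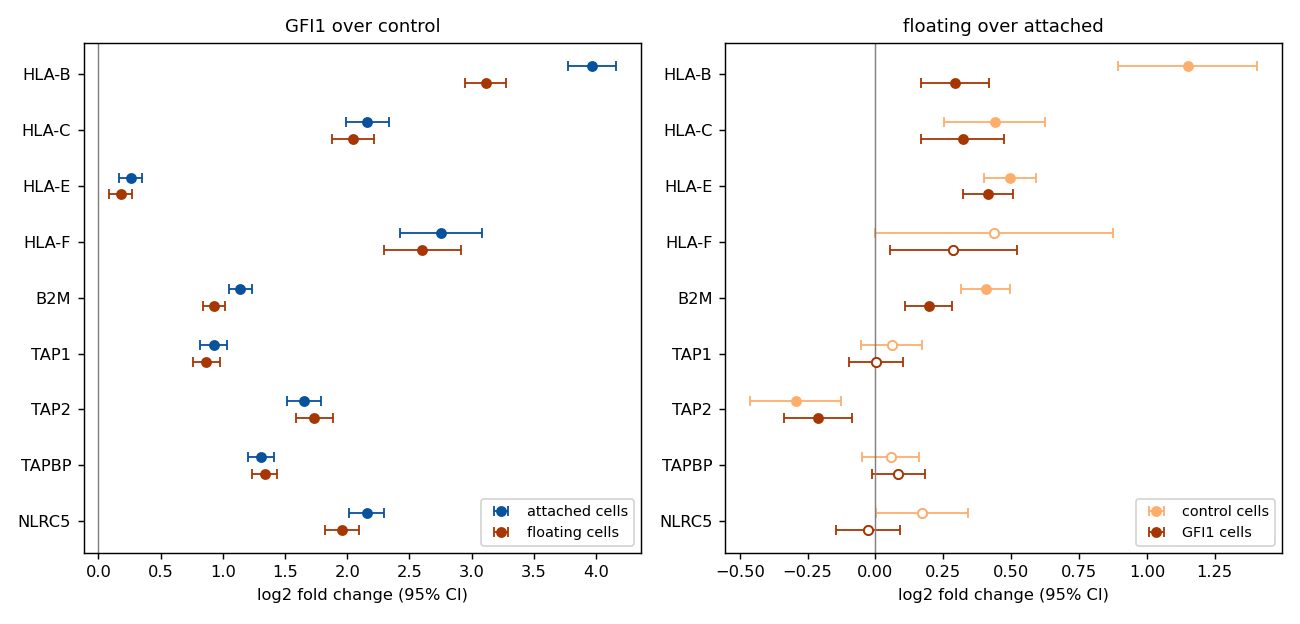
Log2 fold change with 95% confidence interval from edgeR for the 9 members, GFI1 over control on the left (attached and floating cells) and floating over attached on the right (control and GFI1 cells), with open points for an adjusted p above 0.05. All GFI1 points lie to the right of 0, from 0.18 (HLA-E, floating) to 3.97 (HLA-B, attached), while TAP2 alone is called to the left of 0 with suspension. The axes of the panels differ in range.

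Whether the GFI1 effect depended on the culture was tested as an interaction, which compares fold changes and not gains in CPM. HLA-B and B2M had smaller fold changes with GFI1 in floating than in attached cells, 2 of 9 members. Of all genes, 6.01% were lower in this test and 10.8% were called in either direction. For HLA-B the difference was -0.86 ± 0.14 on the log2 scale (edgeR adjusted p of 0.000125). For B2M it was -0.21 ± 0.06 (0.0254), a call that was lost when any one of 6 of the 12 libraries was left out (attached control 3, each attached GFI1 library, floating control 2 or 3), with adjusted p from 0.0524 to 0.104. The other 7 did not pass, from -0.20 ± 0.10 for NLRC5 (0.24) to 0.08 ± 0.10 for TAP2 (0.688). HLA-C, at -0.12 ± 0.12 (0.61), would be called at -0.29 (0.0351) without attached control replicate 1, the library with its high value. GFI1 itself was 1.93-fold higher in floating than in attached GFI1 cells (log2 0.95 ± 0.10, edgeR adjusted p of 2.38e-08), and the part of this in the differences was not tested. For TAPBP the interval of the difference ran from -0.12 to 0.17, and for TAP1 from -0.21 to 0.09.

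The order of the 4 groups separated the members. HLA-B, HLA-C, HLA-F, B2M, TAP1 and TAPBP rose from attached control over floating control and attached GFI1 to floating GFI1. HLA-E had floating control above attached GFI1 cells, by 0.24 ± 0.04 on the log2 scale (edgeR adjusted p of 6.44e-05), so that its change with suspension exceeded its change with GFI1. TAP2 ran from floating control over attached control and floating GFI1 to attached GFI1. NLRC5 ran from attached over floating control to floating and attached GFI1. Neighbours of the same genotype overlapped and were not called for TAP1, TAPBP and NLRC5, and were not called for HLA-F. All other neighbouring groups differed beyond their spread.

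Genes that make and trim peptides, or help to load them, were described through 11 further genes. In attached GFI1 cells 9 of the 11 were above control and 1 below it, and in floating culture the counts were again 9 and 1, beside 29.5% higher and 32.8% lower of all genes in attached and 29.3% and 31.1% in floating cells. Their median log2 fold change was 1.30 attached and 0.87 floating. The 3 catalytic subunits of the immunoproteasome, the form of the proteasome whose cuts favour class I ligands, rose most among them with TAPBPL, a peptide editor related to tapasin. PSMB10 in attached culture had 6.17 ± 1.26 CPM in control and 46.4 ± 2.6 CPM in GFI1 cells (SD, n = 3, log2 2.91 ± 0.10 SE, edgeR adjusted p of 7.1e-19). PSMB9 rose by 2.47 ± 0.11 (5.65e-16) and PSMB8 by 2.17 ± 0.07 (1.48e-19), and in floating cells the log2 changes of PSMB10, PSMB9 and PSMB8 were 2.66, 2.67 and 1.76. TAPBPL had 9.10 ± 1.12 CPM in attached control and 45.3 ± 1.2 CPM in attached GFI1 cells, and its log2 changes were 2.32 and 2.48.

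The aminopeptidase ERAP1, which trims peptides in the endoplasmic reticulum, had log2 changes of 1.71 attached and 1.61 floating, and its relative ERAP2 1.30 and 0.64. The difference for ERAP2 between the cultures was -0.65 ± 0.21 and just missed the threshold (edgeR adjusted p of 0.0505). It was called with RLE, upper quartile or library size scaling, with no low-count filter, with 10 counts in every library and with robust moderation (-0.672 to -0.636, adjusted p from 0.0334 to 0.0467), and without attached GFI1 3, floating control 3 or floating GFI1 3 (-0.79 to -0.743, 0.0126 to 0.0376). The proteasome activator subunits PSME1 (0.94 and 0.87) and PSME2 (0.74 and 0.73) rose by less than 2-fold. The general chaperones behaved otherwise. CANX (calnexin), which folds new heavy chains, was lower, at -0.38 ± 0.04 and -0.35 ± 0.04 (edgeR adjusted p of 1.21e-08 and 3.93e-08). CALR (calreticulin) was called at 0.16 ± 0.05 in floating cells (0.0029) and had 0.04 ± 0.05 in attached cells (0.403), where scaling by library size alone gave a call at 0.19 (0.000521). PDIA3, a thiol oxidoreductase of the loading complex, had 0.10 ± 0.04 attached (0.0392) and -0.02 ± 0.04 floating (0.638). The PDIA3 call in attached cells was lost without attached control 2 or 3, attached GFI1 2 or 3, or floating control 1 or 2, at 0.08 to 0.10 with adjusted p from 0.0526 to 0.165, and with no low-count filter (0.08, 0.21). With suspension 4 of the 11 were higher and 1 lower in control cells (19.6% and 20.5% of all genes), and 1 higher and 2 lower in GFI1 cells (15.0% and 16.3%). PSMB9, the neighbour of TAP1, fell by 0.53 ± 0.15 in control (0.0065) and by 0.34 ± 0.09 in GFI1 cells (0.006), as TAP2 did, whereas TAP1 did not pass. The PSMB9 call in control cells was lost without floating control replicate 1 (-0.37, adjusted p of 0.0637), and that in GFI1 cells without attached GFI1 replicate 1 (-0.25, 0.0662). The ERAP1 suspension call in control cells (0.16, edgeR adjusted p of 0.0294) was lost without attached control 1 or floating control 1 or 2. DESeq2 and no low-count filter lost it too. The PSME2 call in GFI1 cells (-0.13, 0.0367) was lost when any attached GFI1 library or floating GFI1 2 was left out. DESeq2, upper quartile scaling, no low-count filter and only the 2 groups lost it too. In control cells 3 of the 11 genes were called without floating control 1, and in GFI1 cells 1 without attached GFI1 1.

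Upstream of the class I genes, the interferon list held 15 receptors and signaling genes. In attached GFI1 cells 7 of them were above control and 5 below it, and in floating culture 9 and 4. Of all genes, 29.5% were higher and 32.8% lower attached, and 29.3% and 31.1% floating. The medians over the list were 0.13 and 0.26. IRF1, an interferon-induced activator of class I promoters, led at 3.11 ± 0.05 attached and 2.90 ± 0.05 floating (8.61-fold and 7.44-fold, edgeR adjusted p of 1.21e-24 and 4.77e-24), and its level in attached libraries was 23.6 ± 0.4 CPM in control and 203 ± 8.3 CPM with GFI1 (SD, n = 3). IFNGR1, a chain of the interferon-gamma receptor, was lowest at -1.63 ± 0.06 and -2.11 ± 0.06 (7.53e-18 and 2.87e-20). Of 9 interferon ligand genes 2 could be tested, and the other 7 had at most 3 counts in any library, IFNB1 at most 2 and IFNG 0. A count of 0 allows up to 3 counts per library. IFNA1, at 5 to 19 counts, had 0.50 ± 0.40 attached (0.291) and was lower with GFI1 in floating cells, by -1.16 ± 0.37 (0.00863).

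**Figure D4:**
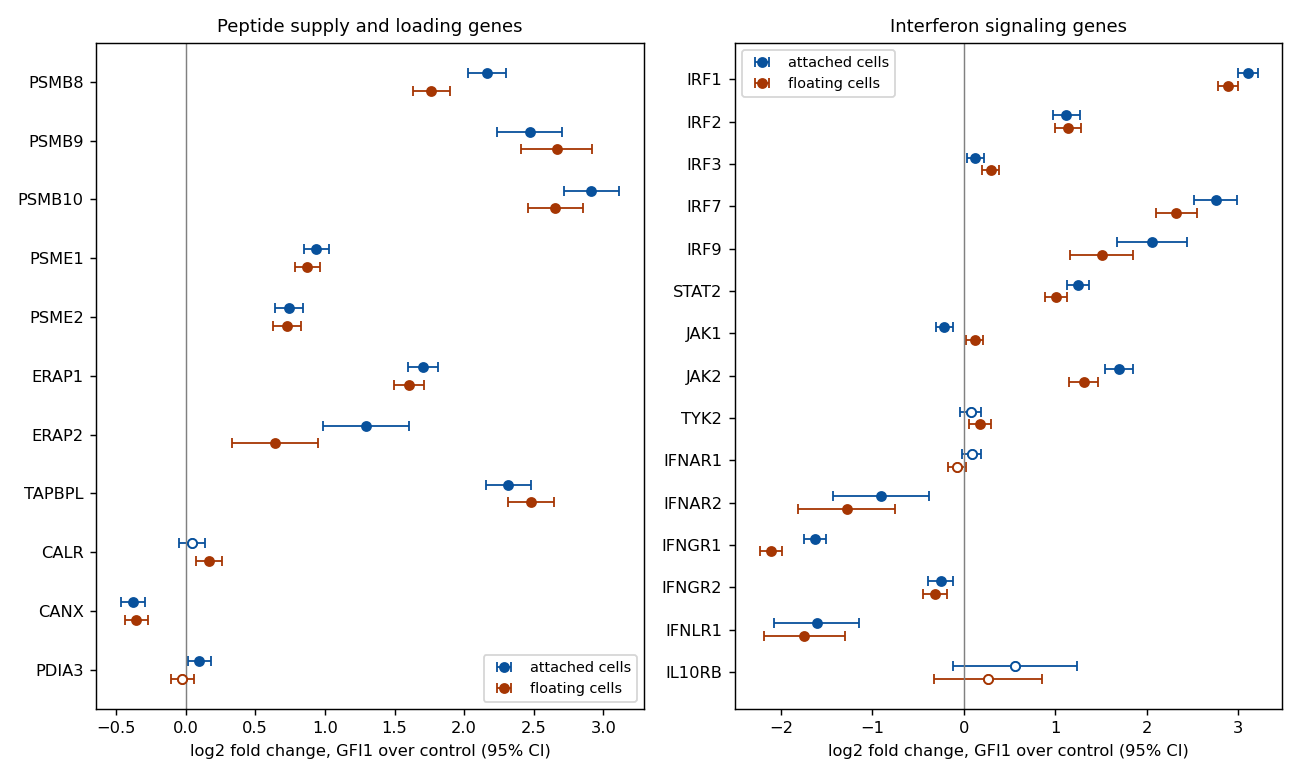
Log2 fold change of GFI1 over control with 95% confidence interval from edgeR, in attached and floating cells, for 11 peptide supply and loading genes (left) and 15 interferon signaling genes (right), with open points for an adjusted p above 0.05. PSMB10 reaches 2.91 and CANX lies at -0.38 in attached cells, and IRF1 at 3.11 stands opposite IFNGR1 at -1.63.

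The DNA-binding partners of NLRC5 moved little. Of 8 genes (RFX, CREB/ATF1 and NFY factors), 5 were above control and 1 below it in attached GFI1 cells (29.5% and 32.8% of all genes), and 3 and 0 in floating ones (29.3% and 31.1%). Their largest changes were 0.52 ± 0.16 for RFXAP attached (edgeR adjusted p of 0.00757) and 0.43 ± 0.07 for NFYB floating (4.85e-06), and the lowest called one -0.20 ± 0.06 for NFYA attached (0.00535). None of the 5 NF-kappaB subunits was higher with GFI1 and 3 were lower in each state (32.8% and 31.1% of all genes lower), with NFKB1 lowest at -0.80 ± 0.06 and -0.76 ± 0.07 (4.89e-11 and 2.14e-10). Of 4 genes of the Polycomb repressor PRC2, EZH1 was higher at 0.70 ± 0.07 and 0.67 ± 0.07 (3.57e-09 and 5.28e-09). EZH2 was lower at -0.52 ± 0.05 and -0.30 ± 0.06 (5.93e-09 and 6.35e-05).

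Related antigen-presenting and class I-like genes did not move as one group. Of 13 class I-like genes 9 could be tested, of which 2 were above control and 5 below it in attached GFI1 cells (29.5% and 32.8% of all genes), and 3 and 5 in floating ones (29.3% and 31.1%). MR1, which presents vitamin B metabolites, rose most, by 1.65 ± 0.07 attached and 1.31 ± 0.06 floating (edgeR adjusted p of 4.71e-17 and 2.56e-15). ULBP3, a ligand of the NKG2D receptor, was lowest in attached cells at -2.80 ± 0.34 (8.36e-08), and HFE, which regulates iron uptake, in floating cells at -2.26 ± 0.09 (1.23e-17). HLA-G, a class I chain of the placenta, had 1 count in all libraries together. Of 12 class II genes 5 could be tested, of which 4 were above control and 1 below it in attached GFI1 cells, and 3 and 1 in floating ones, beside the same shares of all genes. HLA-DOB was highest, at 1.66 ± 0.44 and 2.47 ± 0.39 (0.00184 and 5.77e-06), on 3 to 40 counts per library. HLA-DMB, a class II peptide editor, was lowest, with 8.44 ± 0.46 CPM in attached control and 0.219 ± 0.016 CPM in attached GFI1 cells (log2 -5.23 ± 0.23, 3.11e-16). CIITA, the class II counterpart of NLRC5, rose by 1.64 ± 0.21 and 1.32 ± 0.22 (1.54e-07 and 1.54e-05), while the class II chain HLA-DRA had at most 4 counts.

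With suspension, the largest called change of each of these lists that had one was as follows. In control cells it was 0.71 ± 0.22 for IRF9 (edgeR adjusted p of 0.0103), -0.92 ± 0.28 for ULBP3 (0.00936), 0.62 ± 0.12 for HLA-DMB (0.000163) and -0.48 ± 0.05 for EZH2 (9.07e-08). IFNA1 rose by 1.26 ± 0.38 there (0.0094), and RFX5 by 0.16 ± 0.06 (0.0236). In GFI1 cells it was 0.38 ± 0.07 for IFNGR2 (6.15e-05), 0.65 ± 0.20 for ULBP1 (0.0136), 0.95 ± 0.31 for HLA-DOB (0.0219), -0.26 ± 0.06 for EZH2 (0.000846) and 0.19 ± 0.05 for NFKB2 (0.00853).

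Across the 12 libraries the members followed their common profile, the mean of their z-scored log2 CPM, with Pearson's r from 0.937 (TAP2) to 0.996 (HLA-B), except HLA-E at 0.594. These points fall into 2 genotypes, which set most of each r. Each member is also part of the mean it was compared with, which raises its r. Among 11877 other protein-coding genes, LTBP3 (r = 0.998), SYBU (0.998), APOL1 (0.997), SRGN (0.997) and ZNF703 (0.997) were most like the common profile. JADE2, CBLB and DTX3L (each 0.998) were most like NLRC5. With Spearman's coefficient 1 of the 5 (SRGN) and 1 of the 3 (JADE2) stayed among the closest.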

How the data were processed

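RNA of A549 cells was poly-A selected and sequenced by the authors on an Illumina NovaSeq system, and the deposited values are raw counts of fragments per gene. The study's methods name FastQC, HISAT2 alignment to GRCh38 and featureCounts, whereas the submitters' processing notes name Bowtie2, HTSeq and hg38. The annotation release and strand setting are not given in the sources used here. The deposited table also holds gene lengths (unit other), from which RPKM was computed. Total counts were 17014188 to 20748677 per library, and counting error covers only part of the spread.

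Groups came from the sample labels. The model was run with edgeR 4.0.16 under R 4.3.3: filterByExpr (minimum count 10, minimum total 15), TMM, 1 quasi-likelihood model with 4 group means over 12 libraries, 5 two-sided contrasts, Benjamini-Hochberg adjustment over 17829 genes, and a threshold of 0.05 without a fold limit. SE is the log2 fold change over the root of F. Log2 CPM used a prior count of 2. The code was tested on simulated data. Replicate pairs within groups differed by more than counting noise, so each library counted as 1 sample. The chi-square per gene was 4.84 to 11.9 between floating GFI1 libraries and 2.01 to 3.76 in the other groups. The model fitted no separate spread for each group, so SEs of contrasts with floating GFI1 cells may be too small.

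All 9 members were named, with every peptide supply gene and, per other list, the highest and lowest called gene (the largest change for suspension), genes overlapping a member, and the 5 and 3 genes most like the members' mean and NLRC5. The members and lists were chosen with earlier results of these data known. Alternatives were DESeq2 1.42.0, RLE, upper quartile and library size scaling, other filters, robust moderation, only the 2 groups, a replicate block, a 2-fold limit, HLA genes summed, and leaving out each library. Promoters were read from RefSeq (GRCh38.p14) and shared stretches from GENCODE transcripts. An item of the interferon list is not reported here.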

Additional observations from a re-analysis of the deposited data

Results flagged for a closer look

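These values were singled out because the GFI1 effect differed between floating and attached cells by the interaction test (edgeR, adjusted over all genes). The smaller effect in floating cells was -0.857 on the log2 scale for HLA-B, with 3.97 attached and 3.11 floating (adjusted p of 0.000125). It was -0.21 for B2M, with 1.14 and 0.93 (0.0254), and -0.401 for the immunoproteasome gene PSMB8, with 2.17 and 1.76 (0.00624).

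Among the other lists the difference was -0.341 for MR1 (adjusted p of 0.0185), -0.483 for IFNGR1 (0.000376), -0.39 for JAK2 (0.0205) and -0.272 for RFX5 (0.0259). It was positive for ULBP1 at 1.47 (0.00135), which had -0.40 attached (not called) and 1.07 floating, and for ULBP3 at 1.69 (0.0303) and MICA at 0.41 (0.0345), both lower with GFI1 in each state. The kinase JAK1 changed direction, from -0.21 attached to 0.12 floating (0.334, adjusted p of 0.000838). NFKB2 had 0.245 (0.032) and SUZ12 0.238 (0.0202). Positive and negative calls were 3 and 1 of 9 tested class I-like genes, 0 and 1 of 8 NLRC5 partners and 1 and 2 of 15 interferon signaling genes. They were 1 and 0 of 5 NF-kappaB subunits and 1 and 0 of 4 PRC2 genes. Of 5 class II and 2 interferon ligand genes 0 were called. These 10 genes were read from lists chosen with earlier results known, and 10.8% of all genes passed this test in either direction.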

How the results depend on the processing

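All 9 members stayed higher with GFI1 and past the threshold, in both states, under each alternative that kept the genes apart and set no fold limit. With the 4 HLA genes summed and so counted as 1 feature, 3 features were called for suspension in control cells and 3 in GFI1 cells. In the interaction 1 was called, and the summed HLA value, -0.158 (edgeR adjusted p of 0.137), did not pass. HLA-B was not tested by itself in this setting. Its mean share of the summed HLA counts ran from 2.90% in attached control to 16.9% in attached GFI1 cells. With at least 2-fold change 1, 0 and 0 members were called in these contrasts. Leaving out 1 library gave 9 to 9 called for GFI1 in each state, 5 to 6 for suspension in each genotype and 1 to 3 in the interaction. Of the 11 peptide supply genes it gave 3 to 6 for suspension in control cells, 1 to 4 in GFI1 cells and 1 to 2 in the interaction. All-gene counts with at least 2-fold change were 3247, 3078, 909, 500 and 241, against 11102, 10770, 7152, 5577 and 1919 for GFI1 attached, GFI1 floating, suspension in control, suspension in GFI1 cells and interaction. Scaling by library size only moved the all-gene median to 0.14 in both GFI1 contrasts.

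Reversals touched values near 0, and the cause was not tested. TAP1 with suspension in GFI1 cells became -0.00321 (RLE), -0.00421 (DESeq2) and -0.00484 (only the 2 groups), and ranged from -0.0282 to 0.0286 over libraries left out. PDIA3 with GFI1 in floating cells became 0.0239 (upper quartile) and 0.106 (library size, called at 0.0222). With suspension in control cells, upper quartile, library size and the filter of 10 counts in every library gave PSME1 0.0129, 0.0135 and 0.00594 and TAPBPL 0.0108, 0.0117 and 0.00369. PSME2 in the interaction became 0.00433 with no filter. Leaving out 1 library gave -0.0103 to 0.0695 for TAPBP in the interaction, -0.0581 to 0.00583 for NLRC5 and -0.0645 to 0.015 for PSMB10 with suspension in GFI1 cells, -0.0437 to 0.0218 for PSME1 and -0.0915 to 0.0847 for TAPBPL with suspension in control cells, and -0.0617 to 0.0297 for PSME2 and -0.0137 to 0.0481 for CANX in the interaction.

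Replicate numbers are shared between groups, but same-numbered libraries did not deviate together (r from -0.0306 to 0.0311 over 18 pairs, 0 above 0.1). A replicate block left the member calls at 9, 9, 5, 5 and 2 and all-gene calls at 11054, 10713, 7110, 5546 and 1904 in the same order of contrasts. HLA-F, at 20 to 30 counts in controls, is the member that depth limits most.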
